A study of Rattus norvegicus with 6 samples.

Results

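The miRNAs miR-132 and miR-212 are a pair of neighbouring hairpins whose 4 mature arms, rno-miR-132-3p, rno-miR-132-5p, rno-miR-212-3p and rno-miR-212-5p, were taken by name from a table of 910 miRNA names. All 4 were counted, and 3 of the 4 had enough reads to be tested among 341 miRNAs. Small RNA was sequenced from the lens capsules of 6 Sprague Dawley rats, 3 in the control group given saline and 3 in the Na2SeO3 group given sodium selenite, which clouds the lens of young rats. The pups used were 8 days old, selenite was injected under the skin of the neck at 20 μmol/kg on days 3, 5 and 7, and the lenses were taken on day 15 of the experiment. Whether the injection days count age or days of the experiment is not given in the sources used here. The strain, the injections and the tissue were otherwise shared. Each library came from a different rat, and pups of 1 stock given 1 dose and sampled at 1 time are the limit of the model.

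A miRNA gene is transcribed into a long precursor that is cut to a hairpin, and either side of the hairpin, the 5p or the 3p arm, can be loaded into the silencing complex. Bases 2 to 8 of a mature arm, the seed, pair with target mRNAs. miR-132 and miR-212 are made from 1 transcript, and in neurons that transcript is a known target of CREB, the transcription factor switched on by cyclic AMP and by calcium. miR-132 is known for dendrite growth in neurons and for vessel growth in endothelial cells, where it lowers Rasa1, a brake on Ras. The counts hold no measurement of CREB, so the naming of the pair after CREB is background.

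The mature sequences of all 4 arms were found in RefSeq (GRCr8, chromosome 10, plus strand) and are shown because they set which arms share targets. The seed is in capitals.
rno-miR-132-3p: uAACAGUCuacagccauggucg
rno-miR-212-3p: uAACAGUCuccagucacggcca
rno-miR-132-5p: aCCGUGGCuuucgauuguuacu
rno-miR-212-5p: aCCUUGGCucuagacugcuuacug

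The 3p arms shared their seed and their first 9 bases, and 17 of 22 positions were identical. They differed by A10C, C14U, U17C, U20C and G22A, counted from the 5′ end with the base of miR-132-3p given first. No other of the rat mature sequences listed in RefSeq carried the seed AACAGUC, and 686 of the 763 rat names in the table had such a sequence. The 5p arms had 14 of 22 compared positions in common and differed within the seed by G4U, so each had a seed of its own. In GRCr8 the hairpins lie 182 bases apart, Mir212 before Mir132, between the protein-coding genes Hic1 and Ovca2, with a long non-coding RNA gene (LOC120095261) next to Mir132. The Mir132 hairpin is 101 bases long, with 14 bases between the arms.

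The counted reads ranged from 1806596 to 2829903 per control library and from 663096 to 968151 per Na2SeO3 library. In the study's list the raw reads differed less between the groups. A smaller share of them was thus counted on miRNA names in every Na2SeO3 library. Per raw read, the median ratio of Na2SeO3 to control over the miRNAs tested was 0.48. The source of this difference was not tested, and it cannot be told apart from the treatment. The level that 3 reads would give, under which a value was taken as too close to 0 to read, was 1.04 to 1.94 CPM in the control group and 2.72 to 4.37 CPM in the Na2SeO3 group, where CPM are counts relative to the library total after TMM scaling. This limit and the intervals given here describe counting error alone. No molecular identifiers are described in the sources used here, so several reads may stem from 1 molecule. Beside the tissue label, miR-184, an abundant miRNA of the lens and cornea, was at 34844 to 85716 CPM in the 6 libraries. The sensory and lens miRNAs listed with it (miR-204, miR-211, miR-183, miR-96 and miR-182) brought the sum to at least 237870 CPM in every library. Of these, miR-182 was at 69795 to 110552 CPM, miR-183-5p at 35236 to 46295 CPM and miR-96-5p at 36393 to 56893 CPM. The list covers lens and other eye tissue, so these levels cannot tell them apart. Neuronal miR-9a-5p was also abundant, at 24301 to 42507 CPM, and neuronal miR-124-3p was at 2141 to 3795 CPM.

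Both arms of miR-132 were less abundant in the Na2SeO3 group, and the 3p and 5p arms moved by almost the same amount. The 3p arm, the arm that lowers Rasa1, was counted 640, 479 and 454 times in control libraries 1 to 3 and 77, 86 and 96 times in Na2SeO3 libraries 1 to 3. Scaled, its level was 221, 248 and 294 CPM in the control libraries and 112, 78.1 and 106 CPM in the Na2SeO3 libraries. The lowest control library lay above the highest Na2SeO3 library. The mean went from 254 ± 36.8 to 98.6 ± 18.1 CPM (SD, n = 3 per group), a 2.59-fold lower level (log2 fold change -1.37, standard error 0.20). In lens capsule RNA as a whole, fewer cells that make a miRNA and less of it per cell cannot be told apart.

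The 5p arm of miR-132, the strand opposite the better studied one, was counted 699, 414 and 388 times in the control libraries and 53, 83 and 83 times in the Na2SeO3 libraries. Its level was 241, 214 and 251 CPM in the control group and 77.2, 75.3 and 91.3 CPM in the Na2SeO3 group. Again no library of one group reached the range of the other, and the Na2SeO3 libraries lay closer together than those of the 3p arm. The mean went from 236 ± 19.2 to 81.3 ± 8.73 CPM (SD, n = 3 per group), a 2.90-fold lower level (log2 fold change -1.53, standard error 0.18). By mean level the 3p arm was at place 116 of the 910 names in the control group and at place 178 in the Na2SeO3 group, and the 5p arm went from place 121 to place 195.

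miR-212 was far rarer. Its 5p arm was counted 37, 36 and 24 times in the control libraries and 8, 4 and 4 times in the Na2SeO3 libraries. That is 12.8, 18.6 and 15.5 CPM in the control group and 11.6, 3.63 and 4.40 CPM in the Na2SeO3 group. Na2SeO3 libraries 2 and 3 were low, whereas Na2SeO3 library 1 lay only just under the lowest control library. The mean went from 15.6 ± 2.92 to 6.56 ± 4.42 CPM (SD, n = 3 per group), a 2.54-fold lower level (log2 fold change -1.34) with a standard error of 0.44, more than that of either miR-132 arm.

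The 3p arm of miR-212, which shares the seed of miR-132-3p, had too few reads to be tested. It was counted 13, 6 and 8 times in the control libraries and 2, 1 and 4 times in the Na2SeO3 libraries, at 4.49, 3.10 and 5.18 CPM and 2.91, 0.91 and 4.40 CPM. The values of Na2SeO3 libraries 1 and 2 lay under the level of 3 reads, and the groups overlapped. Summed over the libraries, the 7 reads of the Na2SeO3 group against the 27 of the control group gave a ratio of 0.61 (95% exact interval 0.23 to 1.44), so neither a fall as large as that of miR-132-3p, whose summed ratio was 0.39 (0.34 to 0.44), nor an equal level lay outside the interval. The ratio was 0.39 without Na2SeO3 library 3 and 0.88 without Na2SeO3 library 2.

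**Figure D1:**
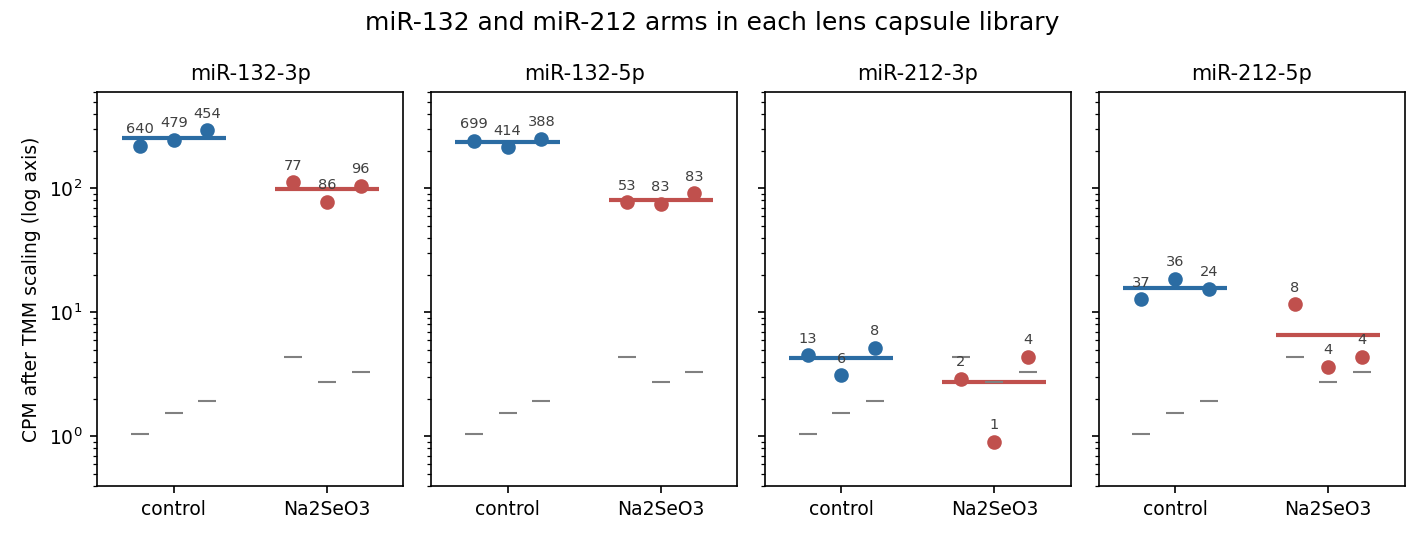
Level of each miR-132 and miR-212 arm per library, as CPM after TMM scaling on a log axis. Points are libraries 1 to 3 of the control (blue) and Na2SeO3 (red) groups from left to right with their read counts, horizontal lines are group means, and grey dashes mark the level of 3 reads in each library. The control libraries of miR-132-3p (221 to 294 CPM) and miR-132-5p (214 to 251 CPM) lie above all Na2SeO3 libraries, while the groups of miR-212-3p overlap.

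With the thresholds of the methods, all 3 tested arms were down-regulated DEmiRNAs in edgeR's fit over all miRNAs. miR-212-5p entered the test through the control libraries, since no Na2SeO3 library held 10 reads of it, so its call adds nothing to those of the miR-132 arms. Of the 341 miRNAs tested, 17 were down-regulated DEmiRNAs (4.99%) and 39 were up-regulated (11.4%). The miR-132 and miR-212 arms were picked with this comparison known, so their calls and fold changes are a description and nothing is read from the difference between their share and 4.99%. The 3 tested arms were also without overlap between the groups and lower in the Na2SeO3 group, as were 21.1% of the miRNAs tested (46.3% counting either direction). Among all miRNAs ordered from the largest fall, miR-132-5p was at place 5, miR-132-3p at place 7 and miR-212-5p at place 9. The median log2 fold change of the 341 was 0.08, and the 3 arms lay 1.61, 1.45 and 1.42 below it. These levels are relative to the reads counted on miRNA names. Per raw read of each library the median was -1.07, and the 3 arms then lay 1.64, 1.44 and 1.38 below that median.

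Both miR-132 arms were DEmiRNAs in all 15 alternative fits. The call of miR-212-5p rested on few reads and was lost in 9 of the 14 alternative fits that tested it, among them DESeq2, the replicate block and no filter on low counts. It was lost with each of the 3 control libraries or Na2SeO3 library 2 or 3 left out, and the log2 fold change was -0.998 without Na2SeO3 library 2. It was kept without Na2SeO3 library 1, the library with 8 reads, where the log2 fold change was -1.97.

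**Figure D2:**
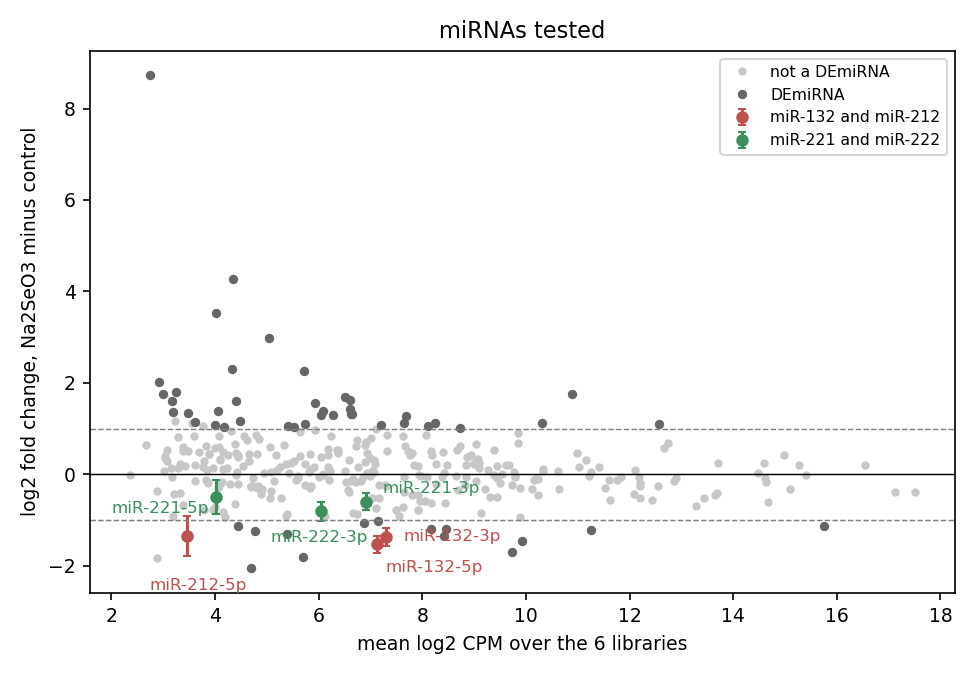
Log2 fold change (Na2SeO3 minus control) against mean log2 CPM for the 341 miRNAs tested. Dark points are DEmiRNAs, dashed lines mark a log2 fold change of 1 in either direction, and bars on the coloured points are standard errors. The miR-132 and miR-212 arms (red, -1.34 to -1.53) lie under the lower line, and the arms of miR-221 and miR-222 (green, -0.49 to -0.81) lie above it.

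Summed over both arms, the miR-132 hairpin gave 463, 462 and 545 CPM in the control libraries and 189, 153 and 197 CPM in the Na2SeO3 libraries. Group means for it were 490 ± 47.7 and 180 ± 23.2 CPM (SD, n = 3 per group). The miR-212 hairpin gave 17.3, 21.7 and 20.7 CPM and 14.6, 4.54 and 8.80 CPM, with means of 19.9 ± 2.33 and 9.30 ± 5.03 CPM (SD, n = 3 each). Neither sum overlapped between the groups, and the control mean was 2.72 times the Na2SeO3 mean for miR-132 and 2.14 times for miR-212. For miR-212 this rests on 10, 5 and 8 reads in the Na2SeO3 libraries.

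The arms of miR-132 were used almost equally. The 5p arm took 52.2%, 46.4% and 46.1% of the hairpin's reads in control libraries 1 to 3, where 1339, 893 and 842 reads were counted. In Na2SeO3 libraries 1 to 3 it took 40.8%, 49.1% and 46.4% of 130, 169 and 179 reads. The exact interval of Na2SeO3 library 1, the lowest, was 32.2% to 49.7%, and that of control library 1, the highest, was 49.5% to 54.9%. The group means were 48.2% ± 3.46 and 45.4% ± 4.25 (SD, n = 3 each), a difference of 2.80 percentage points that was smaller than the spread between replicates, and the ranges overlapped. A 5p share of 40% to 60% in the control group was found in 8 of the 73 rat hairpins with both arms tested (11.0%).

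In miR-212 the 5p arm was the more abundant. It took 74.0%, 85.7% and 75.0% of the reads in the control libraries, of which there were 50, 42 and 32. In the Na2SeO3 libraries the shares were 80.0%, 80.0% and 50.0% of 10, 5 and 8 reads, and the exact interval of the last reached from 15.7% to 84.3%. Over the control group, 97 of 124 reads (78.2%, 69.9% to 85.1%) were on the 5p arm, and over the Na2SeO3 group 16 of 23 (69.6%, 47.1% to 86.8%). A shift in the arm share of miR-212 was not detectable at this depth.

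**Figure D3:**
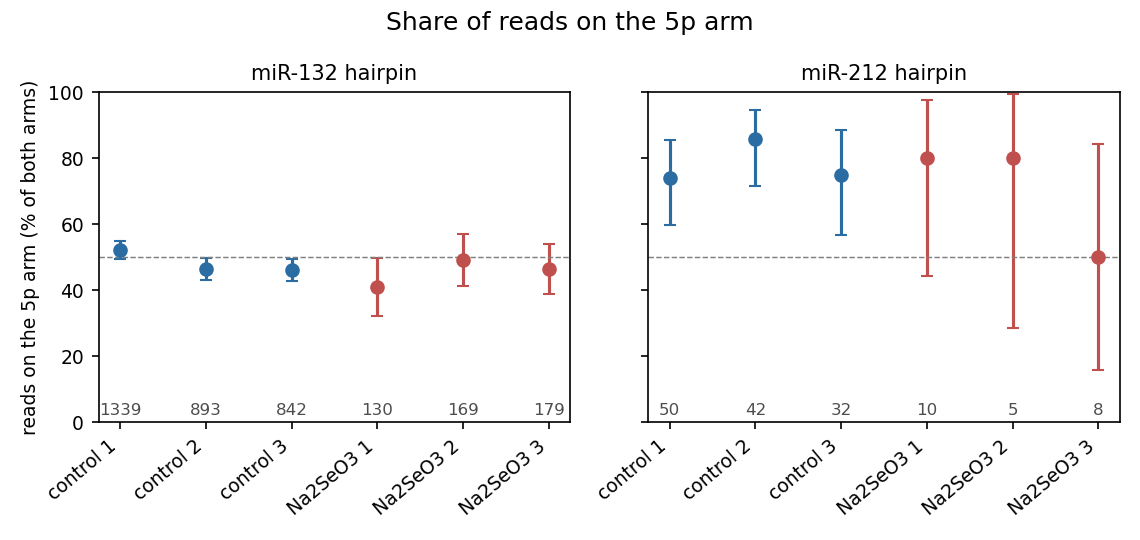
Share of reads on the 5p arm of the miR-132 and miR-212 hairpins in each library (percent of the reads of both arms). Bars are 95% exact binomial intervals, the numbers at the foot are the reads of both arms, and the dashed line is 50%. The miR-132 shares stay between 40.8% and 52.2% in both groups, whereas the intervals of miR-212 in the Na2SeO3 libraries rest on 5 to 10 reads.

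The change of both miR-132 arms was set against other hairpins. The log2 fold changes of the miR-132 arms differed by 0.16, and across the 73 hairpins the median absolute difference between arms was 0.33, with quartiles of 0.13 and 0.56. By the mean of both arms miR-132 was the lowest of the 73, and miR-200a, an epithelial miRNA, came next at -1.06 for the 5p arm and -1.19 for the 3p arm. These hairpins, miR-132 and miR-200a, were 2 of the 73 in which both arms were down-regulated DEmiRNAs, and in 4 hairpins both were up-regulated. In 24 of the 73 both arms had a log2 fold change below 0. In miR-29c, by contrast, the 3p arm (-1.25) was a DEmiRNA and the 5p arm (-0.62) was not. No hairpin of miR-212 entered, since its 3p arm was not tested.

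**Figure D4:**
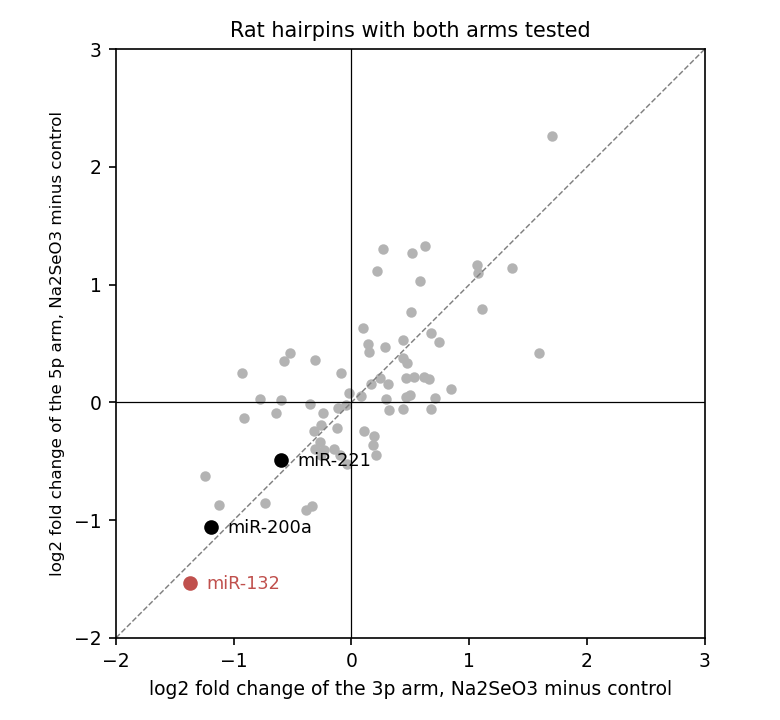
Log2 fold change (Na2SeO3 minus control) of the 5p arm against that of the 3p arm for the 73 rat hairpins with both arms tested. The dashed line marks equal change. miR-132 lies at -1.37 (3p) and -1.53 (5p), close to the line and lowest of the 73 by the mean of both arms, with miR-200a next and miR-221 at -0.60 and -0.49.

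The ratio of the reads of both hairpins within a library needs no scaling between libraries. For the 3p arms, which share a seed, miR-132 was counted 49.2, 79.8 and 56.8 times as often as miR-212 in the control libraries and 38.5, 86.0 and 24.0 times as often in the Na2SeO3 libraries. In Na2SeO3 libraries 1 and 2 these ratios rest on 2 reads and 1 read of miR-212-3p, under the level of 3 reads. The ranges of the groups overlapped, and the mean log2 ratio, of which that of the Na2SeO3 group is as uncertain as these counts, was 5.92 ± 0.36 in the control group and 5.43 ± 0.93 in the Na2SeO3 group (SD, n = 3 each). Over the control group, 1.69% (exact interval 1.11% to 2.45%) of the reads with the seed AACAGUC came from miR-212, and over the Na2SeO3 group 2.63% (1.06% to 5.35%). The level of the seed as a whole was therefore set by miR-132-3p, at 258 ± 37.3 CPM in the control group and 101 ± 19.5 CPM in the Na2SeO3 group (SD, n = 3 each).

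For the 5p arms the ratio of miR-132 to miR-212 was 18.9, 11.5 and 16.2 in the control libraries and 6.63, 20.8 and 20.8 in the Na2SeO3 libraries. The lowest and the highest of the 6 ratios were both in Na2SeO3 libraries, where 4 to 8 reads of miR-212-5p were counted. The mean log2 ratio was 3.93 ± 0.37 in the control group and 3.83 ± 0.95 in the Na2SeO3 group (SD, n = 3 each), a difference smaller than the spread between replicates. A joint change of both hairpins by 1 factor and a change that differed between them were not separable at the depth of miR-212.

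miR-221 and miR-222, another pair of neighbouring miRNA genes whose 3p arms share a seed and which is known for lowering the cell cycle inhibitor Cdkn1b, gave a comparison. Their 3p sequences are shown for the shared seed, in capitals.
rno-miR-221-3p: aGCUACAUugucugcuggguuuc
rno-miR-222-3p: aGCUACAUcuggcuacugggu
The control level of miR-221-3p was 147 ± 7.21 CPM and its Na2SeO3 level 96.9 ± 17.4 CPM (SD, n = 3 per group), with a standard error of 0.19 on its log2 fold change of -0.60. For miR-222-3p the levels were 86.1 ± 8.10 and 48.8 ± 8.38 CPM (SD, n = 3 per group), with a standard error of 0.20 on its log2 fold change of -0.81. Neither group pair overlapped, and neither arm passed the fold change threshold. The 5p arm of miR-221 had overlapping groups and a log2 fold change of -0.49, and miR-222-5p had 2 reads in all. A test of the difference between the pairs was not run, since the miR-132 side was chosen on these values.

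The miRNAs whose levels over the 6 libraries followed the miR-132 arms most closely were found by the root mean square difference of log2 CPM after each was centred on its own mean, over 325 other rat miRNAs. The 6 libraries fall into groups, so the measure is led by the difference between groups. For miR-132-3p the closest was miR-29b-3p at 0.17, followed by miR-200a-5p (0.18), miR-132-5p (0.20), miR-184 (0.20) and miR-200b-3p (0.20), where the median over the 325 was 0.78. For miR-132-5p the order was miR-29b-3p (0.15), miR-200a-3p (0.18), miR-200b-3p (0.20), miR-132-3p (0.20) and miR-7b (0.20), with a median of 0.83. Each of these was a down-regulated DEmiRNA, with levels from 63.2 ± 6.86 CPM for miR-29b-3p to 81459 ± 6586 CPM for miR-184 in the control group (SD, n = 3 each). The arms of miR-132 were thus at place 3 and place 4 for each other, behind miRNAs from other genes.

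The sister arm miR-212-5p was at place 20 for miR-132-3p (0.37) and at place 43 for miR-132-5p (0.52). The closest to miR-212-5p itself was miR-27a-5p at 0.36, which was not a DEmiRNA, followed by miR-10b-5p (0.36), miR-132-3p (0.37), miR-200a-5p (0.38) and miR-184 (0.38). The 5 distances from miR-212-5p were each larger than the 5 from either miR-132 arm, with 4 to 37 reads per library behind it.

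miR-132 is made in neurons, endothelial cells and leukocytes as well as in other cells, so miRNAs that mark these cells were followed. Of the list of neuronal and activity-regulated miRNAs, 13 of 24 names were tested, of which 1 was an up-regulated DEmiRNA and none was down-regulated, with a median log2 fold change of 0.10 against 0.08 over all miRNAs. The 1 was miR-219a-2-3p (4.26), from a hairpin known in oligodendrocytes. It was at 2.42, 6.72 and 3.24 CPM in the control libraries and 85.9, 73.5 and 75.9 CPM in the Na2SeO3 libraries. It entered the test through the Na2SeO3 libraries, so its call adds nothing to these values. The summed level of the list was 36099 to 43377 CPM in the control libraries and 41523 to 51977 CPM in the Na2SeO3 libraries, so that the groups overlapped. The other tested names had log2 fold changes from -0.77 to 0.87. The lowest were miR-129-1-3p and miR-129-2-3p, which carried identical counts (standard error 0.18). Their groups did not overlap, at 254, 363 and 338 CPM in the control libraries and 198, 162 and 199 CPM in the Na2SeO3 libraries. miR-129-5p was at -0.44 (standard error 0.15), miR-124-3p at -0.12, and miR-134-5p, induced by Mef2 in active neurons, was the highest. None of these passed the fold change threshold. Per raw read, 1 of the 13 was up-regulated and 7 were down-regulated, where 51.6% of all miRNAs tested were down-regulated DEmiRNAs, a share close to that of the list.

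The endothelial miR-126a had log2 fold changes of 0.24 for the 3p arm and 0.21 for the 5p arm, without a DEmiRNA, and its list summed to 20586 to 26070 CPM and 25203 to 30518 CPM, while miR-126b was at 0 in every library. Of the leukocyte list 6 of 10 names were tested, none was a DEmiRNA and the median log2 fold change was -0.16, with sums of 981 to 1171 CPM and 843 to 1027 CPM. Per raw read 5 of the 6 were down-regulated DEmiRNAs, on a scale that called 51.6% of all miRNAs so. Within it miR-146a-5p, induced by NF-kappaB, was at -0.24 and miR-155-5p, a miRNA of activated leukocytes, at -0.02. The neuronal, endothelial and leukocyte sums overlapped between the groups after TMM scaling. With library size only the neuronal and endothelial sums were higher in every Na2SeO3 library, with RLE or upper-quartile scaling the leukocyte sum was lower, and per raw read all 3 sums were lower.

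The sums of 2 lists did not overlap and were higher in the Na2SeO3 group, although per raw read both overlapped with a lower mean in the Na2SeO3 group (0.73 and 0.80 times the control mean, where the median of all miRNAs was 0.48 times). The erythroid list summed to 254 to 306 CPM in the control libraries and 404 to 518 CPM in the Na2SeO3 libraries, with 1 of 3 tested names up-regulated (miR-486, log2 fold change 1.12, and -0.03 per raw read) and 1 of 5 names at 0. The other tested erythroid names, miR-451-5p at 0.06 and miR-144-5p at 0.41, were not DEmiRNAs, so the higher sum was not shared by the list. The muscle list summed to 7264 to 8812 CPM and 13508 to 14614 CPM, with 1 of 6 tested names up-regulated (miR-206-3p, 1.75, and 0.59 per raw read) and 4 of 14 names at 0. Among the muscle names that were not DEmiRNAs, miR-499-5p was lower at -0.49. The others were higher, with miR-1-3p at 0.69, miR-133a-3p at 0.68, miR-133a-5p at 0.59 and miR-133b-3p at 0.98. In the list for lens and other eye tissue 1 of 9 tested names, miR-184, was a down-regulated DEmiRNA at -1.13 (-0.93 and not called with library size only), and the sums overlapped except per raw read. Per raw read, 1 of 3 erythroid, 1 of 6 muscle and 6 of 9 eye names were down-regulated DEmiRNAs and none was up-regulated. On that scale 51.6% of all miRNAs tested were down-regulated DEmiRNAs. The part of these cell types in the miR-132 and miR-212 levels was not tested.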

How the data were processed

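Small RNA from the lens capsules of 6 rats was sequenced, 3 per group, and groups were taken from the sample labels. Reads were trimmed with Cutadapt and Fqtrim, checked with FastQC and compared with an Ensembl rat genome by miRDeep and HISAT2. The genome build, the tool versions and the handling of reads that fit several names are not given in the sources used here. The authors deposited unnormalized read counts per miRNA name.

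From these counts, names with few reads were removed (filterByExpr, minimum count 10), libraries were scaled with TMM, and edgeR's quasi-likelihood test compared the groups, with p-values adjusted by the Benjamini-Hochberg method. DEmiRNAs had an adjusted p-value under 0.05 and an absolute log2 fold change above 1, as in the methods. log2 CPM used a prior count of 2. Intervals are 95% exact intervals for counting error. The procedure was run on simulated data in which as many miRNAs rose as fell. That run does not cover a shift of most miRNAs in 1 direction. Versions used were edgeR 4.0.16 and DESeq2 1.42.0 under R 4.3.3.

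The miRNAs described and the marker lists were chosen with earlier results of these data known, so their changes are described without p-values. miRNAs were named by rule: the 4 arms, names sharing a seed with them, the 5 closest in pattern, the arms of miR-221 and miR-222, and the DEmiRNAs of each marker list. The miR-200a and miR-29c hairpins and the other list members with values were named after their values were seen. Alternatives were other scalings, filters and tests, a replicate block, and leaving out each library, and scaling to raw reads used the totals the study lists. Mature sequences are from RefSeq (GRCr8). Positions are left out, since the genome build of the counts is unknown.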

Additional observations from a re-analysis of the deposited data

How the results depend on the processing

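Both miR-132 arms stayed below 0 and DEmiRNAs in all 15 alternative fits. Apart from scaling to the raw reads, the log2 fold change ranged from -1.45 to -1.18 for miR-132-3p and from -1.62 to -1.34 for miR-132-5p over 8 settings, and with each library left out from -1.49 to -1.22 and from -1.63 to -1.48. For miR-212-5p the call was lost with library size only (-1.15), without a filter (-1.37), with DESeq2 (-1.38) and with the replicate number as a block (-1.34), and its leave-one-out values ranged from -1.97 to -0.998. With at least 10 counts in every library it could not be tested. Of the 4 arms 2 or 3 were called in each fit.

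Scaling to raw reads gave 182 DEmiRNAs in place of 56 (6 up-regulated and 176 down-regulated) and moved the median of all miRNAs to -1.07; miR-212-3p was then at -1.85 instead of -0.71, and the other arms lay 1.44, 1.64 and 1.38 below that median (miR-132-3p, miR-132-5p and miR-212-5p). With library size only, 53 DEmiRNAs were up-regulated and 10 down-regulated, with a median of 0.27, and upper-quartile scaling gave 32 and 22. Other settings gave 42 to 63 DEmiRNAs and leaving out a library 45 to 62. The summed ratio of miR-212-3p has no value with DESeq2 or the block, and its log2 value ranged from -1.36 to -0.19 with a library left out.

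The difference in 5p share ranged from -4.65 to -0.47 percentage points for miR-132 and from -13.2 to 1.76 for miR-212 with a library left out, the last without Na2SeO3 library 3. The difference in the log2 ratio of the 3p arms, -0.50 with 1 to 4 reads of miR-212-3p per Na2SeO3 library, ranged from -0.996 to -0.08, and on summed reads it was -0.65. Of the 39 listed marker miRNAs tested, 4 to 5 were DEmiRNAs with the other scalings of counted reads or the block. Per raw read 21 were (1 up-regulated and 20 down-regulated), a setting added for these lists after seeing the data. Over all 341 miRNAs tested, 16.4% were DEmiRNAs with TMM scaling, and 51.6% were down-regulated per raw read. Libraries with the same number deviated from the group means with correlations across miRNAs of -0.17, -0.18 and -0.26, so the numbers did not pair the libraries, and the block gave 33 up-regulated and 16 down-regulated DEmiRNAs. The number of counted reads limits miR-212, with 10, 5 and 8 reads of both arms in the Na2SeO3 libraries.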
